A study of Mus musculus with 12 samples.

Results

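Haemoglobin and erythroid genes were followed through hippocampus RNA of 12 mice, to see how much red cell message each library held and how the heterozygous *Nell-1+/6R* genotype compared with WT. The members are 6 genes named by symbol: the alpha-globin genes *Hba-a1* and *Hba-a2*, the beta-globin genes *Hbb-bs* and *Hbb-bt*, *Alas2* and *Slc4a1*. Their symbols were matched to Entrez gene IDs, and 5 of the 6 were matched to a row among the 27179 IDs of the raw count table. Counts of *Hbb-bt* were not analysed here. The *Nell-1+/6R* group carried 1 copy of 6R, a loss-of-function allele of *Nell1* induced in the germline by ENU, a chemical mutagen. The WT group was made up of littermates without it. All mice were 3 months old, and each genotype was made up of 3 females and 3 males. The mice were anesthetized and decapitated, the brain was moved to ice-cold medium and the hippocampus was dissected from it. The sources used here describe no flushing of the vessels before dissection. Each sample is 1 mouse, and its total of counted reads lay between 10834905 and 16016317. *Nell1* was lower in each of the 6 *Nell-1+/6R* mice than in any WT mouse (217 to 303 against 348 to 635 counts). The 8 markers of hippocampal principal neurons summed to 740 to 880 CPM (the reads of a gene scaled by the total counted in that mouse to counts per 1000000) in the 12 mice.

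Haemoglobin is built from alpha-globin and beta-globin chains, each holding a haem group. Red cells lose their nucleus as they mature, but young ones, called reticulocytes, still carry globin mRNA and go on making protein for a short time. Alas2 is the erythroid form of the enzyme that starts haem synthesis, and Slc4a1 (band 3) is the anion exchanger of the red cell membrane. Brain tissue does not form red cells in the adult, although low globin expression has been described in some neurons and glia. In bulk RNA such as this, fewer cells of a type and less RNA per cell cannot be told apart.

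The alpha-globin genes are near copies, as are the beta-globin genes, so how well reads of 50 bases tell them apart bears on every value below. In GENCODE M21 (GRCm38), the coding parts of *Hba-a1* and *Hba-a2* differ at 1 of 426 positions, C381T from *Hba-a1* to *Hba-a2*, counted from the first base of the start codon. The difference lies in exon 3 of both genes. The 49 bases around it are shown on the plus strand, with the differing base in capitals, at chr11:32284319-32284367 for *Hba-a1* and chr11:32297136-32297184 for *Hba-a2*.
Hba-a1: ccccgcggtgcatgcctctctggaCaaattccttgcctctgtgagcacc
Hba-a2: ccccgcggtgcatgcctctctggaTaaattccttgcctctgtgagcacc

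The coding parts of *Hbb-bs* and *Hbb-bt* likewise differ at 1 of 441 positions, C417T from *Hbb-bs* to *Hbb-bt*, also in exon 3. The bases around it are shown on the minus strand, on which both genes lie, at chr7:103826668-103826716 for *Hbb-bs* and chr7:103812659-103812707 for *Hbb-bt*.
Hbb-bs: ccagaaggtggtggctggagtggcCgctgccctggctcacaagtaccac
Hbb-bt: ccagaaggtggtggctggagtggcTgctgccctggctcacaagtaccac

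Outside the coding parts the copies differ more. Of the 505 stretches of 50 bases in the *Hba-a2* transcript, 66 (13.1%) occurred in no other gene's transcript, against 211 of 650 (32.5%) for *Hba-a1*. For *Hbb-bs* it was 198 of 579 (34.2%) and for *Hbb-bt* 273 of 654 (41.7%). Only stretches of the members were taken. How far *Hbb-bs* reads can be told from those of *Hbb-b1*, a further beta-globin ID described below, is not shown by these shares. In contrast, all 4496 stretches of *Slc4a1* and 1713 of 1988 (86.2%) of *Alas2* were found in that gene alone. The *Alas2* stretches held in common lie in *Apex2* and *Mir3620*, which overlap it. Counts are therefore uncertain for single globin genes, whereas those for *Slc4a1* are not shared with another transcript. How the counting treated reads that match several places or lie on several genes was not stated in the sources used here.

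RefSeq promoters of GRCm38.p6 were matched for 5 of the 6 members. *Hba-a2* and *Alas2* are shown because their levels ran together over the mice, and *Hbb-bs* for comparison. Each line gives the 250 bases before the start of the gene, 5′ to 3′ on the strand of the gene, with GATAA (the core recognised by GATA factors) and CACCC (the core of the KLF1 motif) in capitals on either strand. *Hba-a2* is on the plus strand at chr11:32296242-32296491, *Hbb-bs* on the minus strand at chr7:103827929-103828178 and *Alas2* on the plus strand at chrX:150547167-150547416.
Hba-a2: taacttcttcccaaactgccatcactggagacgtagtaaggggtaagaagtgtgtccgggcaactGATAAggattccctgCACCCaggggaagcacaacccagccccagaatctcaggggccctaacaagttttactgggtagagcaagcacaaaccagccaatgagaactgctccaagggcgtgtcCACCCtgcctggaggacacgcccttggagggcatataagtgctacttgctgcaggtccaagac
Hbb-bs: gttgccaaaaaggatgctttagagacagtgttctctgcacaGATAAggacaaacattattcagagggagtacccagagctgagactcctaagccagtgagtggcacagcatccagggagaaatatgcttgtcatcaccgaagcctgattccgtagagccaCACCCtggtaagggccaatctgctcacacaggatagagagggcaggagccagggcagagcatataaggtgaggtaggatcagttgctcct
Alas2: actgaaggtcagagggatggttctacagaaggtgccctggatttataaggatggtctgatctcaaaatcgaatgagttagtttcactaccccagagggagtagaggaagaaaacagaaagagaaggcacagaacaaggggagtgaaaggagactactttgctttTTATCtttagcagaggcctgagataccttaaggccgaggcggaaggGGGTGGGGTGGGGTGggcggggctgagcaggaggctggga

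Each of the 5 matched promoters held 1 GATAA, a sequence found on either strand in 22.6% of 32851 mouse promoters of that length. CACCC occurred 1 time in *Hbb-bs*, 2 times in each alpha-globin promoter and 3 times in *Alas2* and in *Hbb-bt*, where 52.0% of all promoters hold it. These matches describe the letters and were not tested for binding. Over 247 aligned bases the *Hba-a1* and *Hba-a2* promoters were identical.

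Among the alpha-globin genes, *Hba-a2* (chr11:32296492-32297310) held nearly all counts. It had 1624 of the 1626 alpha-globin counts of the 12 mice. *Hba-a1* (chr11:32283672-32284486) had 1 count in female WT replicate 3, 1 in male *Nell-1+/6R* replicate 1 and 0 in the other 10 mice, where a count of 0 allows up to 0.187 to 0.277 CPM (3 counts of the total). They thus had very unequal counts while their promoters and coding sequences were near copies, and *Hba-a1* did not pass the filter for testing.

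*Hba-a2* was the most abundant of the 5 members matched to a row, also per length of transcript. The non-member ID *Hbb-b1*, described below, had a higher mean over the 12 mice (16.8 against 10.1 CPM). Female WT mice had 17.4, 12.5 and 13.3 CPM (replicates 1 to 3), and male WT mice 6.65, 11.7 and 8.40. Female *Nell-1+/6R* mice had 10.3, 10.3 and 7.66 CPM, and male *Nell-1+/6R* mice 6.27, 9.09 and 7.74. All 3 female WT mice stood above the other 9, while the male WT mice lay within the range of the *Nell-1+/6R* mice apart from replicate 2. The genotypes overlapped. Their means were 11.6 ± 3.78 CPM (WT) and 8.56 ± 1.62 CPM (*Nell-1+/6R*), as mean ± SD of 6 mice. Over the 12 mice its coefficient of variation was 31.8%, compared with a median of 13.8% among 4016 tested genes of like mean count and 8.60% from counting error alone.

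Among the beta-globin genes, *Hbb-bs* (chr7:103826523-103827928) was nearly uncounted in males. Female WT mice had 17, 3 and 7 counts and female *Nell-1+/6R* mice 12, 6 and 8. Each of the 3 male WT mice had 1 count, and male *Nell-1+/6R* mice had 2, 4 and 1. In CPM this is 0.235 to 1.06 in females and 0.0759 to 0.288 in males, so that female WT replicate 2 was the only female within the male range. By genotype the means were 0.339 ± 0.384 CPM (WT) and 0.418 ± 0.324 CPM (*Nell-1+/6R*), as mean ± SD of 6 mice, with full overlap.

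Most beta-globin reads were instead counted under another gene ID, which RefSeq names *Hbb-b1*. It is not a member, but it held 97.5% of the 2728 counts over the 5 beta-like globin IDs. RefSeq lists *Hbbt1* and *Hbbt2* among its older names. The start RefSeq gives it, 38285 on chromosome 7, lies apart from those of *Hbb-bs* and *Hbb-bt*. Whether these positions are counted along the same sequence was not checked, so a separate locus is not shown. The sources used here do not say which stretch of mm10 the reads of *Hbb-b1* came from, and it is described as the ID stands in the table. Whether they are reads of the member *Hbb-bt* could not be settled, and if they were, 2 of 5 tested members rather than 1 of 4 would be past the genotype thresholds given below. Female WT mice had 15.98, 39.8 and 36.7 CPM and male WT mice 9.88, 13.3 and 25.6. Female *Nell-1+/6R* mice had 8.61, 9.68 and 5.86 CPM and male *Nell-1+/6R* mice 4.60, 7.50 and 23.97. 5 of the 6 *Nell-1+/6R* mice were below every WT mouse, and male replicate 3 was above 3 of the 6. The means were 23.5 ± 12.6 CPM (WT) and 10.04 ± 7.07 CPM (*Nell-1+/6R*), as mean ± SD of 6 mice. The coefficient of variation was 71.5%, against a median of 11.8% among 4706 tested genes of like mean count.

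*Alas2* (chrX:150547417-150570622) followed the pattern of *Hba-a2*. Female WT mice had 10.99, 6.66 and 6.09 CPM and male WT mice 4.80, 5.83 and 4.90. Female *Nell-1+/6R* mice had 6.08, 5.97 and 4.05 CPM, and male *Nell-1+/6R* mice 2.53, 5.12 and 4.48. Female WT replicate 1 was the highest of the 12 for both genes and male *Nell-1+/6R* replicate 1 the lowest. 3 of the 6 *Nell-1+/6R* mice were below every WT mouse. The means were 6.55 ± 2.29 CPM (WT) and 4.71 ± 1.33 CPM (*Nell-1+/6R*), as mean ± SD of 6 mice.

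*Slc4a1* (chr11:102348820-102365281) had few counts, 2 to 12 in a mouse. Female WT mice had 11, 11 and 12 counts and male WT mice 2, 7 and 7. Female *Nell-1+/6R* mice had 6, 3 and 2 counts and male *Nell-1+/6R* mice 4, 2 and 5. In CPM, 5 WT mice lay between 0.600 and 0.862 and all 6 *Nell-1+/6R* mice between 0.144 and 0.474, while male WT replicate 1, at 0.185, was among the latter. The means were 0.626 ± 0.241 CPM (WT) and 0.275 ± 0.131 CPM (*Nell-1+/6R*), as mean ± SD of 6 mice. *Slc4a1* also has the longest transcript of the members, 4545 bases against 554 for *Hba-a2*. Per kilobase of transcript the mean level over the 12 mice was 18.2 CPM for *Hba-a2*, 2.76 for *Alas2*, 0.603 for *Hbb-bs* and 0.0992 for *Slc4a1*. *Alas2* was also below *Hba-a2* in plain CPM in every mouse. *Hbb-bs* and *Slc4a1* overlapped in CPM, and counts shared with near copies limit what the globin levels say.

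**Figure D1:**
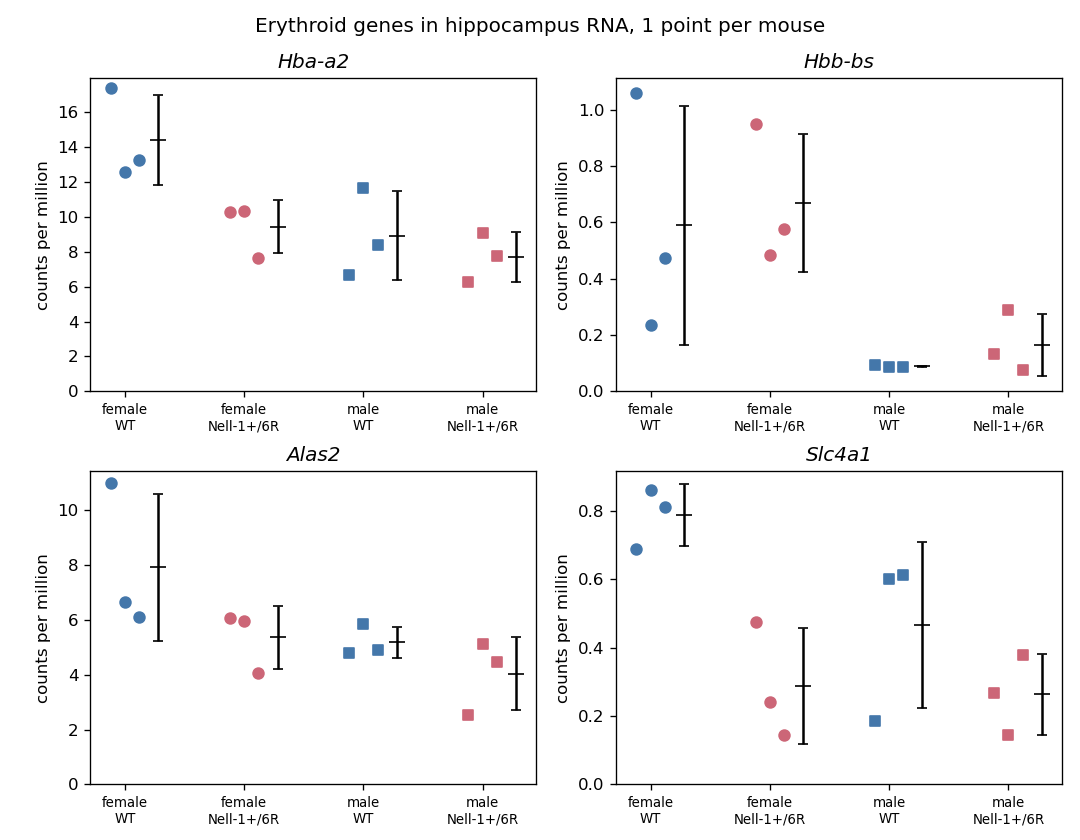
CPM of 4 members in each mouse by sex and genotype, with group means and SD (n = 3) to the right of the points. *Hba-a2* reaches 17.4 in female WT replicate 1, the 3 male WT mice have 1 *Hbb-bs* count each, and 5 of 6 WT mice lie above all *Nell-1+/6R* mice for *Slc4a1*.

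Next, the genotypes were compared in edgeR (quasi-likelihood test, sex in the model) over the 17937 genes that had at least 0.2 CPM in at least 2 mice. Of the 6 members, 4 were tested. *Slc4a1* was lower in *Nell-1+/6R* mice at the study's thresholds (a change of over 1.5 times at an unadjusted p under 0.05), with a log2 fold change of -1.14 (SE 0.372, unadjusted p = 0.00833, adjusted p = 1.00). It was thus 1 of 4 tested members past the thresholds in that direction, where 1.07% of all genes tested were (1.46% in either direction). *Hba-a2* (log2 fold change -0.40, SE 0.159, unadjusted p = 0.0240) and *Alas2* (-0.45, SE 0.196, unadjusted p = 0.0381) were lower by less than 1.5 times. *Hbb-bs* did not differ beyond its error (0.30, SE 0.431, unadjusted p = 0.533), and its value was 0.86 without female WT replicate 1 (unadjusted p = 0.0629) and 0.0654 without female WT replicate 2. At an unadjusted p under 0.05 alone, 3 of the 4 were lower in *Nell-1+/6R* mice, where 2.20% of all genes were (3.26% in either direction). Over the same mice *Hba-a2* had a correlation r of 0.90 with *Alas2* and 0.70 with *Slc4a1*, so the 3 are not separate results. No tested member passed a Benjamini-Hochberg adjusted p of 0.05 in edgeR, DESeq2 or limma-voom, and 0.0390% of all genes did in edgeR. The median log2 fold change of the 4 was -0.43, beside 0.00 over all genes tested. No tested member had groups that did not overlap in CPM, as 0.178% of all genes did.

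At the study thresholds, the call of *Slc4a1* held with any single mouse left out, although it rests on 50 counts in WT and 22 in *Nell-1+/6R* mice. For *Hba-a2* the unadjusted p went up to 0.0705 without female WT replicate 1, 0.0689 without male WT replicate 2, 0.0634 without female *Nell-1+/6R* replicate 3 and 0.0514 without male *Nell-1+/6R* replicate 1. For *Alas2* it went up to 0.130, 0.0680, 0.0933 and 0.0823 without the same 4 mice. *Hbb-b1* had a log2 fold change of -1.17 (SE 0.433, edgeR unadjusted p = 0.0172, adjusted p = 1.00) and was past the study's thresholds. Its value was -1.72 without male *Nell-1+/6R* replicate 3, and it missed the thresholds without male WT replicate 3 (-1.08, unadjusted p = 0.0506).

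Values per mouse were also compared by an exact permutation test, two-sided, in which 6 of the 12 mice were drawn as one genotype in every possible way (smallest possible p 0.00216). In mean log2 CPM (prior count 2), *Nell-1+/6R* minus WT was -0.83 for *Slc4a1* (exact p = 0.0216) and -1.24 for *Hbb-b1* (exact p = 0.0303). It was -0.38 for *Hba-a2* (exact p = 0.121), -0.44 for *Alas2* (exact p = 0.0996) and 0.31 for *Hbb-bs* (exact p = 0.524). These are p of 5 single genes and were not adjusted. Sex does not enter this test, and the spread between the sexes stays in the error.

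The sexes were then taken apart in a model of 4 groups that share one estimate of the spread. In females, *Hba-a2* (log2 fold change -0.62, unadjusted p = 0.0124) and *Slc4a1* (-1.44, unadjusted p = 0.0143) were past the study's thresholds, 2 of 4 tested members where 0.970% of all genes were lower in this way. *Hba-a2* missed them when female WT replicate 1 (-0.47) or replicate 3 of the female *Nell-1+/6R* mice (-0.48) was left out, and *Slc4a1* without female *Nell-1+/6R* replicate 3 (-1.11). *Alas2* in females had a log2 fold change of -0.57 (unadjusted p = 0.0615). It was past the thresholds without female WT replicate 2 (-0.68, edgeR unadjusted p = 0.0486) or 3 (-0.72, unadjusted p = 0.0335) and was -0.26 without female WT replicate 1. In males none of the 4 was past the thresholds or at an unadjusted p under 0.05 in edgeR, where 1.61% of all genes were lower at the thresholds. The male values were -0.17 for *Hba-a2*, -0.32 for *Alas2*, -0.78 for *Slc4a1* and 0.88 for *Hbb-bs*. By edgeR with Benjamini-Hochberg adjustment over all genes, where each of the 4 had an adjusted p of 0.986, the interaction itself (male minus female) was 0.45 for *Hba-a2* (unadjusted p = 0.170), 0.25 for *Alas2* (unadjusted p = 0.549), 0.66 for *Slc4a1* (unadjusted p = 0.411) and 0.75 for *Hbb-bs* (unadjusted p = 0.478). None of the 4 interactions was at an unadjusted p under 0.05, compared with 3.09% of all genes, so the genotype differences were not shown to differ between females and males. The interaction of *Hba-a2* was 0.68 without male WT replicate 2 (edgeR unadjusted p = 0.0399). *Hbb-b1* had -1.94 in females (unadjusted p = 0.00381), -0.40 in males (unadjusted p = 0.473) and an interaction of 1.54 (edgeR unadjusted p = 0.0666). Without male *Nell-1+/6R* replicate 3, its male value was -1.41 (edgeR unadjusted p = 0.0111), past the thresholds, and its interaction 0.54 (unadjusted p = 0.393). Its interaction was at an unadjusted p under 0.05 when any of 4 other mice was left out, at 1.86 without female WT replicate 1, 2.05 without male WT replicate 3, 1.94 without male *Nell-1+/6R* replicate 1 and 1.81 without male *Nell-1+/6R* replicate 2.

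**Figure D2:**
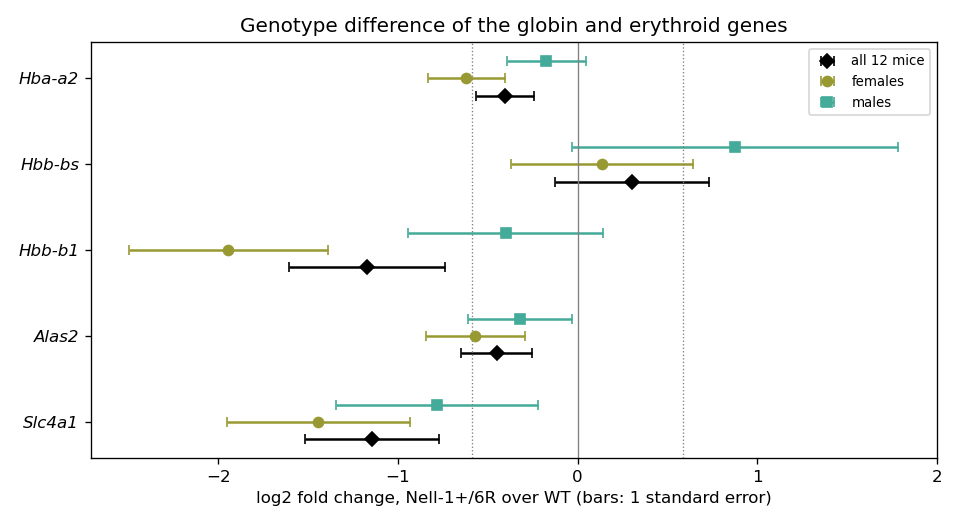
Log2 fold change of *Nell-1+/6R* over WT for 4 members and *Hbb-b1*, over all 12 mice and within each sex, with bars of 1 standard error and dotted lines at a fold change of 1.5. *Slc4a1* (-1.14) and *Hbb-b1* (-1.17) lie beyond the dotted line over all mice, and *Hbb-bs* (0.30) lies within 1 standard error of 0.

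The sexes were compared in the model of genotype and sex. *Hbb-bs* reached the 0.2 CPM of the filter in all 6 females but in only 1 male, so it was tested only because of its level in females, and its sex difference is given as a description. Its log2 difference was -2.19 (male minus female, SE 0.463). It was the 1 member beyond the study's thresholds for sex (0.886% of all genes were lower in males in this way), and nothing is read from that count. Its difference rests on 53 counts in 6 females and 10 in 6 males. *Hba-a2* differed by -0.46 (unadjusted p = 0.0118) and *Alas2* by -0.48 (unadjusted p = 0.0285), each in edgeR, where 2.86% of all genes were lower in males at an unadjusted p under 0.05. Among WT mice alone these differences were -0.68 (unadjusted p = 0.00747) and -0.60 (unadjusted p = 0.0518), and among *Nell-1+/6R* mice -0.24 (unadjusted p = 0.300) and -0.35 (unadjusted p = 0.241). *Slc4a1* differed by -0.46 (unadjusted p = 0.233). No tested member was at an adjusted p under 0.05 for sex in edgeR, as 0.0335% of all genes were. Within 1 genotype, the *Hbb-bs* difference was -2.64 among WT mice and -1.89 among *Nell-1+/6R* mice. With each mouse left out in turn the *Hbb-bs* difference stayed between -2.56 and -1.90. *Hbb-b1* differed between the sexes by -0.19 (unadjusted p = 0.665), by -0.70 without male *Nell-1+/6R* replicate 3 (edgeR unadjusted p = 0.0329, past the thresholds) and by 0.0394 without male WT replicate 1. The *Alas2* difference had an unadjusted p above 0.05 when any of 5 mice was left out, up to 0.0945 without female WT replicate 1.

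To describe the composition of the red cell message, ratios of counts were taken within each mouse, which do not depend on the library total. *Alas2* had 0.633, 0.531 and 0.459 counts per *Hba-a2* count in female WT mice and 0.722, 0.50 and 0.583 in male WT mice. In *Nell-1+/6R* females the ratio was 0.592, 0.578 and 0.528, and in males 0.404, 0.563 and 0.578. The highest was thus 1.79 times the lowest. The ratio did not differ between the genotypes beyond its spread (*Nell-1+/6R* minus WT -0.07 on the log2 scale, exact permutation p = 0.589, adjusted over 2 ratios 0.589). This ratio was chosen after the few counts of *Hbb-bs* and *Slc4a1* had been seen.

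The ratio of the alpha-globin to all beta-like globin counts was less even. It was 1.02, 0.313 and 0.358 in female WT mice, 0.667, 0.872 and 0.327 in male WT mice, 1.07, 1.02 and 1.19 in female *Nell-1+/6R* mice and 1.28, 1.16 and 0.322 in male *Nell-1+/6R* mice. The genotypes differed by 0.80 on the log2 scale (exact permutation p = 0.0758, adjusted over 2 ratios 0.152). Put the other way, *Hbb-b1* had 2.77 to 3.18 counts per *Hba-a2* count in 4 mice and 0.734 to 1.49 in the other 8, with none between. The 4 were female WT replicates 2 and 3, male WT replicate 3 and male *Nell-1+/6R* replicate 3. In the same 4 mice the *Alas2* ratio was 0.459 to 0.583, within the range of the others. Ratios that hold *Hbb-bs* or *Slc4a1*, which had under 10 counts in most mice, are given without a test. *Alas2* had 6.42 to 68.0 counts per *Hbb-bs* count and 7.50 to 35.5 per *Slc4a1* count, and *Slc4a1* had 0.250 to 7 per *Hbb-bs* count.

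**Figure D3:**
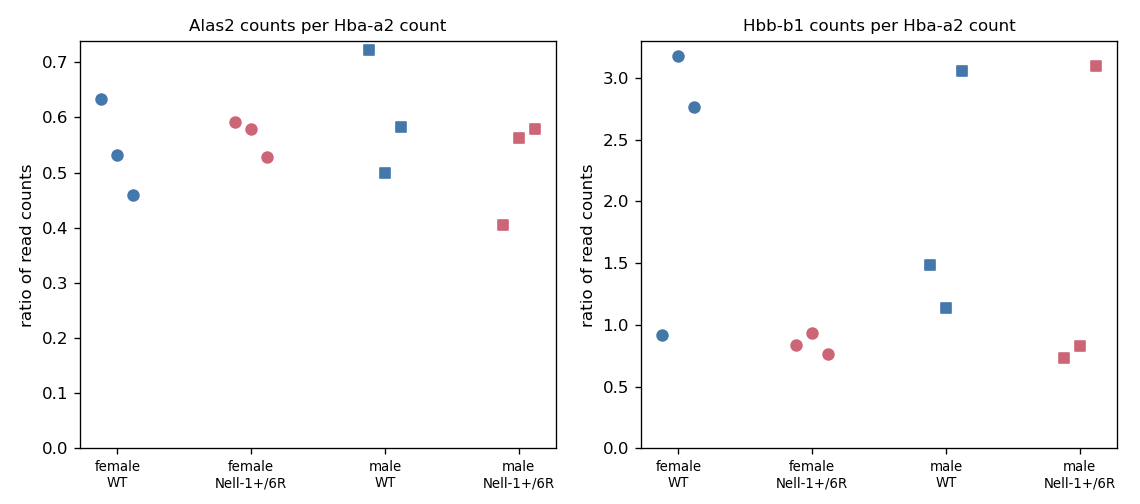
Read counts of *Alas2* (left) and of *Hbb-b1* (right) per read count of *Hba-a2*, 1 point per mouse by sex and genotype. The *Alas2* ratio runs from 0.404 to 0.722, and the *Hbb-b1* ratio is at 2.77 to 3.18 in 4 mice and at 0.734 to 1.49 in the other 8.

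Over the 12 mice, log2 CPM of *Hba-a2* was correlated with that of 9 genes and with the library total, 10 relations in all. The closest partner was *Alas2* (Pearson r = 0.90, permutation p = 2.00e-05, adjusted p = 2.00e-04, Spearman rho = 0.95, permutation p = 3.00e-05, adjusted p = 3.00e-04). Without the 2 mice farthest from the median of *Hba-a2* (female WT replicate 1 and male *Nell-1+/6R* replicate 1) r was 0.86. It was 0.87 within WT and 0.97 within *Nell-1+/6R* mice, and 0.94 within females and 0.74 within males. *Alas2* also ranked 1st by r among the 14827 genes with a mean count of at least 10. For *Slc4a1*, r was 0.70 (permutation p = 0.0124, adjusted p = 0.0618) and rho 0.71 (permutation p = 0.0120, adjusted p = 0.0599), with r 0.71 without the same mice, 0.77 within WT and 0.17 within *Nell-1+/6R* mice. For *Hbb-bs*, r was 0.54 (permutation p = 0.0695, adjusted p = 0.179) and rho 0.39 (p = 0.211, adjusted p = 0.301), with r 0.28 without those 2 mice and 0.83 within WT, 0.58 within *Nell-1+/6R* mice, 0.15 within females and 0.07 within males. *Hbb-b1* had r 0.53 (permutation p = 0.0769, adjusted p = 0.179) and rho 0.59 (p = 0.0493, adjusted p = 0.164), with r 0.50 without those mice and 0.37 and 0.33 within WT and *Nell-1+/6R* mice.

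Genes of other cell types were followed in the same way. The endothelial tight junction gene *Cldn5* had r 0.51 with *Hba-a2* (permutation p = 0.0896, adjusted p = 0.179) and 0.08 without the 2 farthest mice. Its r was 0.60 within WT, 0.46 within *Nell-1+/6R* mice, 0.72 within females and 0.31 within males. The collagen gene *Col1a2* of leptomeningeal fibroblasts had 0.42 (permutation p = 0.169) and 0.00 without them. *Pf4*, of platelets and border-associated macrophages, had 0.44 (permutation p = 0.156), the neutrophil gene *S100a9* -0.40 (permutation p = 0.204) and *Ttr*, of choroid plexus, 0.34 (permutation p = 0.273). Within 1 genotype or sex, r ran from -0.03 (*Nell-1+/6R*) to 0.72 (females) for *Pf4*. For *S100a9* it ran from -0.72 (WT) to -0.13 (*Nell-1+/6R*). Of these 5, none reached an adjusted p of 0.05 by Pearson's r or by rho (lowest adjusted p 0.179 and 0.301). The library total had r 0.36 with *Hba-a2* (permutation p = 0.258), 0.90 within WT and -0.88 within *Nell-1+/6R* mice. Its r was 0.0499 without female WT replicate 1 and 0.62 without male *Nell-1+/6R* replicate 1 (permutation p = 0.0405). Within the genotypes, depth ran with the CPM of *Hba-a2* in opposite ways. Its part in the genotype difference was not tested.

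**Figure D4:**
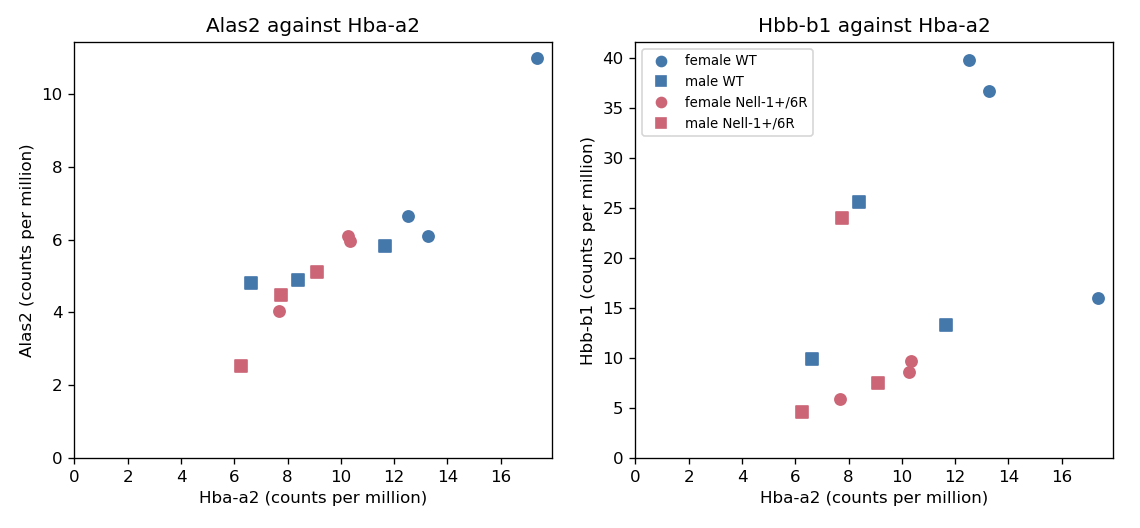
*Alas2* (left) and *Hbb-b1* (right) against *Hba-a2*, all in CPM, 1 point per mouse coloured by genotype and shaped by sex. *Alas2* rises with *Hba-a2* (r = 0.90 on the log2 scale), and for *Hbb-b1* (r = 0.53) the mice with ratios of 2.77 to 3.18 stand above the others.

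By the same measure, the non-member genes most like *Hba-a2* over the 12 mice were *Clec2d* (r = 0.89), *Pdzd7* (0.83), *Arhgdib* (0.83), *Actl10* (0.82), *Ugt8a* (0.82), *Ddx11* (0.81), *Hsp90b1* (0.80), *A4galt* (0.80), *Chchd3* (0.80) and *Syk* (0.78). They were picked as the highest of all genes and their r is a description. *Arhgdib*, which blood cells express strongly, had 6.86 ± 1.44 CPM (WT) and 6.57 ± 0.690 CPM (*Nell-1+/6R*). *Syk*, a kinase of blood cells and microglia, had 6.00 ± 0.909 and 5.62 ± 1.03 CPM (SD, n = 6 each for both genes). *Ugt8a*, which makes the galactolipids of myelin, had 25.6 ± 3.91 and 21.7 ± 1.66 CPM (SD, n = 6 each). *Hbb-b1* was the only non-member globin gene with a mean count of at least 10 and so the only one that could appear. It was not among the 10 (r = 0.53).

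The remaining globin genes were scarce. Of 8 further globin genes, 7 were matched to a row. The embryonic genes *Hbb-bh1* and *Hba-x* and the gene *Hbb-bh2* had 0 counts in all 12 mice, which allows up to 0.0189 CPM over the 158404692 counts. The embryonic *Hbb-y* had 5 counts in all. The theta-like *Hbq1a* had 38 counts and *Hbq1b* 21. Beside *Hbb-b1*, the 2 of them that were tested had log2 fold changes of 0.13 (*Hbq1a*) and -0.54 (*Hbq1b*), neither past the thresholds.

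Haem synthesis was measured with 12 further enzymes and transporters, all tested. Of these, 0 of 12 were past the thresholds (1.46% of all genes tested were) or at an unadjusted p under 0.05 in edgeR (3.26%). A count of 0 in a list this short is near those shares. The log2 fold changes of the 12 lay between -0.12 and 0.10, with a median of 0.00. *Alas1*, the form of the first enzyme that other tissues use, had 68.7 ± 5.81 CPM (WT) and 67.6 ± 5.39 CPM (*Nell-1+/6R*), as mean ± SD of 6 mice. *Fech*, which puts iron into haem, had 66.9 ± 1.63 and 66.2 ± 0.926 CPM (SD, n = 6 each). The genotype difference of *Alas2* was not tested against theirs.

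Of 18 genes of the red cell membrane and skeleton, 14 were tested and 0 were past the thresholds (1.46% of all genes tested were). Their median log2 fold change was -0.07. The most abundant were *Sptb*, a spectrin (468 ± 27.1 and 461 ± 30.8 CPM in WT and *Nell-1+/6R* mice, SD, n = 6 each), and *Dmtn*, an actin-binding protein (390 ± 29.9 and 383 ± 33.3 CPM). Both are also expressed in neurons. *Gypc*, glycophorin C, was at an unadjusted p under 0.05 (log2 fold change -0.48, SE 0.20, edgeR unadjusted p = 0.0301, adjusted p = 1.00), as 1 of 14, where 2.20% of all genes were lower and 3.26% were in either direction at that p. Some other genes of the list had few counts over the 12 mice, among them 2 for *Rhag*, 3 for *Epb42*, 97 for *Ermap* and 260 for *Icam4*. Counts of the list's genes not named here ran up to 31844. *Gypc* and these 4 genes were named after their values had been seen.

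Of 18 genes of reticulocytes and late maturation, 15 were tested and 0 were past the thresholds or at an unadjusted p under 0.05 in edgeR (median log2 fold change 0.02). Over all genes tested these shares were 1.46% and 3.26%, so counts of 0 in this list and the next are near them. *Car2*, a carbonic anhydrase also known from oligodendrocytes, was among the most abundant, with 202 ± 13.3 CPM (WT) and 191 ± 42.9 CPM (*Nell-1+/6R*), as mean ± SD of 6 mice. Among 10 erythroid transcription factors and the erythropoietin receptor gene, 6 were tested and 0 were past the thresholds or at an unadjusted p under 0.05 in edgeR (median 0.06). *Bcl11a* and *Zfpm1*, which neurons express as well, had the highest levels, with 152 ± 5.71 and 100 ± 10.4 CPM (WT) and 153 ± 5.46 and 105 ± 19.3 CPM (*Nell-1+/6R*, SD, n = 6 each). *Gata1*, the master regulator of red cell precursors, had 1 count in all 12 mice, and *Klf1*, the activator of adult beta-globin, had 33.

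Among 14 genes of haem breakdown and iron handling, 13 were tested and 1 was past the thresholds, beside 1.46% of all genes tested. *Cd163*, the macrophage receptor that takes up haptoglobin-bound haemoglobin, was lower in *Nell-1+/6R* mice (0.909 ± 0.524 against 1.61 ± 0.311 CPM, SD, n = 6 each, log2 fold change -0.82, SE 0.290, edgeR unadjusted p = 0.0137, adjusted p = 1.00). *Fth1*, the ferritin heavy chain, had 1914 ± 166 and 1937 ± 386 CPM, and *Lrp1*, a receptor for haem bound to haemopexin, 661 ± 16.3 and 646 ± 25.6 CPM. The median of the 13 was -0.03. *Cd163*, *Slc4a1* and *Hbb-b1* were the calls among the members and these erythroid lists, each lower in *Nell-1+/6R* mice and each at an adjusted p of 1.00. Of the 261 genes past the thresholds over all genes tested, 192 were lower in *Nell-1+/6R* mice, so the shared direction is not particular to these calls.

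White cells and platelets were looked for among the other contents of blood. The 10 neutrophil markers summed to 0.257 to 1.49 CPM (WT) and 0.316 to 0.968 CPM in *Nell-1+/6R* mice, and *Elane* was at 0 in all mice. The 8 lymphocyte markers summed to 0.185 to 1.29 and 0.333 to 0.790 CPM, with *Ms4a1* at 0. No gene of either list was past the thresholds, as 1.46% of all genes tested were. Among the 8 platelet markers, which summed to 12.1 to 17.0 and 12.1 to 18.4 CPM, *Pf4* was past them (0.452 ± 0.170 in WT against 0.173 ± 0.0935 CPM, SD, n = 6 each, log2 fold change -1.33, edgeR unadjusted p = 0.00740, adjusted p = 1.00). Of the 6 platelet genes tested 3 had lower values and 3 higher (median log2 fold change -0.07). *Gp1ba* was at 0.41 (edgeR unadjusted p = 0.0964), *Gp9* at 0.38 and *Gp1bb*, which held most of the sum, at 0.08. Too few to test, *Ppbp* had 5 counts in all (4 in WT and 1 in *Nell-1+/6R* mice) and *Gp6* 2 (2 and 0). Among 6 monocyte markers, which summed to 58.4 to 88.4 and 59.2 to 77.5 CPM and of which *Fn1* held nearly all, *Ccr2* was past them (19 counts in WT and 6 in *Nell-1+/6R* mice, log2 fold change -1.58, edgeR unadjusted p = 0.0354, adjusted p = 1.00). Of the 3 monocyte genes tested, *Ly6c2* had 31 and 37 counts and a log2 fold change of 0.27 (edgeR unadjusted p = 0.539), and the median was -0.08.

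Markers of the vessels and coverings of the brain were summed for each mouse. For the 8 endothelial markers the sum was 173 to 225 CPM (WT) and 166 to 210 CPM (*Nell-1+/6R*). None was past the thresholds (1.46% of all genes tested were), and their median log2 fold change was -0.08. *Tek*, the angiopoietin receptor, was at an unadjusted p under 0.05 (-0.33, edgeR unadjusted p = 0.0101), as 1 of 8, where 2.20% of all genes were lower at that p. All 10 leptomeningeal fibroblast markers had lower values in *Nell-1+/6R* mice, and 6 of 10 were past the thresholds (median log2 fold change -0.91), where 1.07% of all genes tested were lower in this way. They summed to 141 to 462 CPM (WT) and 89.4 to 460 CPM in *Nell-1+/6R* mice. The 8 choroid plexus markers summed to 53.9 to 4616 and 46.1 to 5314 CPM, with a median of -1.01 and 0 past the thresholds. None of the defining markers of these 3 lists was at 0. Their part in the lower *Slc4a1*, *Hba-a2* and *Alas2* was not tested.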

How the data were processed

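Hippocampus RNA of 12 mice (3 females and 3 males of each genotype) was sequenced by the authors as single reads of 50 bases and aligned to mm10. The submitters' processing notes name HISAT2 2.1.0 and featureCounts 2.0.1. The values the authors deposited are raw read counts per Entrez gene ID, not normalized and not pooled, in 1 table whose 12 columns were each matched to a mouse by name. The sources used here do not state the strand setting of the counting. WT titles contain the word Het, whereas the genotype field reads WT, and that field was used. Members and gene lists were chosen with earlier results of these data known, including the list of 6 members.

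CPM values are counts scaled to a total of 1000000, from totals of 10834905 to 16016317. Genes with at least 0.2 CPM in at least 2 mice were tested with edgeR 4.0.16 (R 4.3.3, TMM factors, quasi-likelihood test, sex and genotype, Benjamini-Hochberg adjustment over 17937 genes), after the steps had been tested on simulated data. A model of 4 groups gave the values per sex. DESeq2 1.42.0, limma 3.58.1 (voom), other normalizations, filters and models and each mouse left out were alternatives. Ratios are of plain counts, and their tests used log2 ratios with 0.5 added to each count. Correlations used log2 CPM with TMM factors and a prior count of 2 and 100000 permutations. Sequences were read from GENCODE M21 transcripts and RefSeq promoters, not from a genome. Named genes were the members, *Nell1*, in each erythroid list every gene past the thresholds and otherwise the 2 most abundant, and the 10 genes most like *Hba-a2*. Some genes of the lists are not reported here by name. *Gypc*, *Ermap*, *Icam4*, *Epb42*, *Rhag*, *Gata1*, *Klf1*, *Tek* and the low globin and blood cell genes were named after their values were seen. The labels call each sample a replicate of its sex and genotype, and no pair within a sex and genotype agreed within sampling noise. Intervals and limits at 0 counts cover counting error only, since reads carry no molecular identifiers. Tables and figures were made in Python 3.11.15 (scipy 1.17.1, numpy 2.4.6, matplotlib 3.10.9, pandas 2.3.3).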

Additional observations from a re-analysis of the deposited data

Results flagged for a closer look

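Among 24 sets of 6 mice of 1 genotype (5 genes and 7 ratios), 7 held a mouse whose gap to its nearest neighbour was over 0.625 of the range, Dixon's limit for 6 values, which chance exceeds in about 1 of 20 sets. Among WT mice, *Alas2* was high in female replicate 1 (10.99 CPM). Male *Nell-1+/6R* replicate 3 was far from the other *Nell-1+/6R* mice in *Hbb-b1* (23.97 CPM) and in 4 of the ratios, all of which hold a beta-globin gene and so are not separate events. Its alpha-globin to beta-like globin ratio was 0.322, its *Hbb-b1* to *Hba-a2* ratio 3.10, its *Alas2* to *Hbb-bs* ratio 59 and its *Slc4a1* to *Hbb-bs* ratio 5, the last 2 resting on 1 *Hbb-bs* count. Male *Nell-1+/6R* replicate 1 was low in the *Alas2* to *Hba-a2* ratio (0.404). No cause was tested for any of them.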

How the results depend on the processing

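The genotype differences of the 4 tested members kept their direction in every alternative that could test them. *Slc4a1* was past the thresholds in 22 of 23 alternatives, with 1 exception in males alone (-0.77), and *Hba-a2* was past them in females alone (-0.62). The number of members past the thresholds was 0 with filterByExpr and with a CPM of at least 1 in 6 mice, which leave *Slc4a1* and *Hbb-bs* untested, 2 in females alone and 0 in males alone, and 1 in all others. The count of genes went from 261 to 170 with DESeq2, 110 with filterByExpr, 82 with a CPM of at least 1 in 6 mice and 403 in males alone, and to between 202 and 400 with 1 mouse left out (400 without female *Nell-1+/6R* replicate 1). The causes were not tested.

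With 1 mouse left out, the log2 difference in females ranged from -0.71 to -0.47 for *Hba-a2*, -0.21 to 0.86 for *Hbb-bs*, -0.72 to -0.26 for *Alas2* and -1.98 to -1.11 for *Slc4a1*. In males it ranged from -0.35 to 0.0597 for *Hba-a2*, -0.51 to -0.0642 for *Alas2*, -1.15 to -0.49 for *Slc4a1*, 0.29 to 1.18 for *Hbb-bs* and -1.41 to 0.11 for *Hbb-b1*. The interaction ranged from 0.26 to 0.68 for *Hba-a2*, -0.0573 to 0.50 for *Alas2*, 0.0215 to 1.09 for *Hbb-bs*, 0.29 to 1.20 for *Slc4a1* and 0.54 to 2.05 for *Hbb-b1*, and the sex difference of *Hbb-b1* from -0.70 to 0.0394. The alpha-globin to beta-like globin ratio ranged from 0.65 to 1.11 on the log2 scale (exact permutation p = 0.0152 without male *Nell-1+/6R* replicate 3) and the *Alas2* to *Hba-a2* ratio from -0.13 to 0.00752. The r of *Hba-a2* ranged from 0.34 to 0.66 with *Hbb-bs*, 0.26 to 0.63 with *Cldn5*, 0.22 to 0.52 with *Col1a2*, 0.29 to 0.55 with *Pf4*, -0.56 to -0.24 with *S100a9* and 0.16 to 0.48 with *Ttr*. On plain CPM it was higher with *Hbb-bs* (0.61, permutation p = 0.0368), *Cldn5* (0.59, permutation p = 0.0408) and *Col1a2* (0.58, permutation p = 0.0461), each unadjusted. It was lower on plain CPM with *Ttr* (0.147) and *Hbb-b1* (0.42). Leave-one-out and the other scaling of the sex differences, the *Alas2* to *Hba-a2* ratio, and *Hbb-b1* and the library total as items were added after seeing the data.

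Same-numbered mice of a sex shared only a number, with correlations of their deviations from -0.36 to 0.36. With the replicate block the count of genes was 212 and the members were at -0.40 (*Hba-a2*), 0.38 (*Hbb-bs*), -0.46 (*Alas2*) and -1.14 (*Slc4a1*), with 1 past the thresholds. Counts were few for *Slc4a1* and *Hbb-bs* (medians of 5.5 and 3.5) and for *Hba-a1* (2 in all, not tested).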
